A study of Mus musculus with 6 samples.

Results

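Duxf3 encodes the mouse transcription factor Dux, and Zscan4c, Zscan4d and Zscan4f are 3 copies of the zinc finger gene Zscan4. These 4 genes were taken by name, as genes of embryonic genome activation, out of 48967 genes in the count tables. RNA was sequenced from mouse embryos at the 2-cell stage in 3 control libraries and 3 delipidated libraries. Each library was a pool of 3 embryos, and all pools came from embryos of the same superovulated females that had been mixed and allotted at random. The p-values therefore measure the spread between these pools. Zygotes came from wt mice of the cross F1 (C57Bl/10 X CBA/H), and both groups grew in fatty acid-free KSOM from 0.5 dpc to 2.0 dpc, labelled day 2. Control embryos came from zygotes cultured in vitro without removal of lipid. Delipidated embryos came from zygotes exposed to cytochalasin B and centrifuged, after which the lipid droplets were aspirated through a laser-made opening in the zona pellucida. Whether control zygotes were also centrifuged or exposed to cytochalasin B was not given in the sources used here, so the removal of lipid and this handling cannot be told apart.

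The counts assigned to genes were 12164963, 16165958 and 12980787 in control 1, 2 and 3, and 20059460, 16332103 and 14683741 in delipidated 1, 2 and 3. Genes with counts numbered 22855, 22437 and 20582 in control 1, 2 and 3, and 17091, 19408 and 20158 in delipidated 1, 2 and 3. Every delipidated library thus had fewer such genes than every control library. The files give counts per exonic part, a piece of an exon, so a read that spans several parts was counted in each and the sums exceed the number of reads. Levels are given in CPM, counts scaled to a common library size with the TMM factor of each library.

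As background, Dux is a homeodomain factor whose gene lies in an array of tandem repeats. It is switched on for a short time as the embryonic genome becomes active, and it binds and activates many genes of the 2-cell stage, the Zscan4 cluster among them. Zscan4 proteins carry a SCAN domain and zinc fingers, peak late in the 2-cell stage and are known for their link to telomere maintenance in embryonic stem cells.

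Duxf3, the upstream activator, was found at a low level that differed strongly from pool to pool in both groups. It is listed as ENSMUSG00000075046 and lies on the reverse strand of GRCm38 at chr10:58229979-58232675 as a protein-coding gene divided into 5 pieces. Summed over these, Duxf3 received 27, 22 and 100 counts in control 1, 2 and 3, and 0, 10 and 83 in delipidated 1, 2 and 3. Thus 1 library in each group, numbered 3 in both, held most of the counts, and delipidated 1 held none. Delipidated 1 also had the fewest genes with counts, 17091, and the part of this in its lack of Duxf3 counts was not tested. In CPM, Duxf3 stood at 2.28, 1.33 and 7.60 in the control libraries and at 0, 0.614 and 5.86 in the delipidated libraries. The ranges of the groups overlapped, with both delipidated 1 and delipidated 2 below every control library and delipidated 3 above control 1 and 2. A count of 0 in delipidated 1 allows up to 3 counts, or 0.148 CPM, and this limit covers counting error only. In pools of whole embryos, fewer expressing blastomeres and less RNA per blastomere cannot be told apart.

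The mean level of Duxf3 was 3.74 ± 3.38 CPM (SD, n = 3) in control embryos and 2.16 ± 3.22 CPM (SD, n = 3) in delipidated embryos, a difference smaller than either SD. The exact two-sided permutation p over the 6 libraries was 0.500, where 3 against 3 allows no value below 0.1. Its log2 fold change was -0.80 (SE 1.45, interval at 95% from -3.97 to 2.38), and edgeR's quasi-likelihood test gave an adjusted p of 1.00 over all genes. The value rested on the libraries numbered 3: it was 0.26 without control 3 and -3.59 without delipidated 3, the latter with an adjusted p of 0.863 from the same test. It also depended on the method, at -2.05 with the replicate number as a block and -2.95 with limma-voom, all 6 libraries kept.

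Zscan4c, listed as ENSMUSG00000054272, lies on the forward strand at chr7:11005745-11010547 and has 4 exonic parts. Its counts were 287, 96 and 268 in control 1, 2 and 3, and 353, 350 and 369 in delipidated 1, 2 and 3. These counts correspond to 24.2, 5.81 and 20.4 CPM in the control libraries and to 17.4, 21.5 and 26.0 CPM in the delipidated libraries. Control 2 lay far below the other 5 libraries, which overlapped. The means were 16.8 ± 9.71 CPM (SD, n = 3) in control embryos and 21.7 ± 4.31 CPM (SD, n = 3) in delipidated embryos, which differ by less than the SD of the control libraries. The log2 fold change was 0.37 (SE 0.52), with an adjusted p of 1.00 in edgeR's quasi-likelihood test and an exact permutation p of 0.600. Without control 2 it was -0.04.

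Zscan4d, listed as ENSMUSG00000090714 on the reverse strand at chr7:11161374-11166159, also has 4 exonic parts. Counts of 466, 228 and 578 were found in control 1, 2 and 3, and of 792, 446 and 419 in delipidated 1, 2 and 3. On the CPM scale the control libraries stood at 39.3, 13.8 and 43.9 and the delipidated libraries at 39.1, 27.4 and 29.6. Control 2 was again the lowest library, while control 1, control 3 and delipidated 1 were high and close to each other. The group means were almost equal, at 32.3 ± 16.2 CPM (SD, n = 3) in control embryos and 32.0 ± 6.23 CPM (SD, n = 3) in delipidated embryos. The log2 fold change was -0.01 (SE 0.44), with an interval at 95% from -0.97 to 0.94, an adjusted p of 1.00 in edgeR's quasi-likelihood test and an exact permutation p of 0.900. Its sign was not fixed by the data, since leaving out 1 library at a time gave values from -0.38, without control 2, to 0.27, without control 3.

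Zscan4f, listed as ENSMUSG00000070828 on the forward strand at chr7:11397915-11402318, is divided into 7 exonic parts. Its counts were 414, 340 and 216 in control 1, 2 and 3, and 344, 470 and 264 in delipidated 1, 2 and 3. In CPM, the control libraries stood at 34.9, 20.6 and 16.4 and the delipidated libraries at 17.0, 28.9 and 18.6. Here control 1 and delipidated 2 were the high libraries, control 3 was the lowest, and the groups overlapped throughout. The means were 24.0 ± 9.71 CPM (SD, n = 3) in control embryos and 21.5 ± 6.44 CPM (SD, n = 3) in delipidated embryos. The log2 fold change of -0.16 (SE 0.42) had an adjusted p of 1.00 in edgeR's quasi-likelihood test and an exact permutation p of 0.700, and it was 0.22 without control 1.

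**Figure D1:**
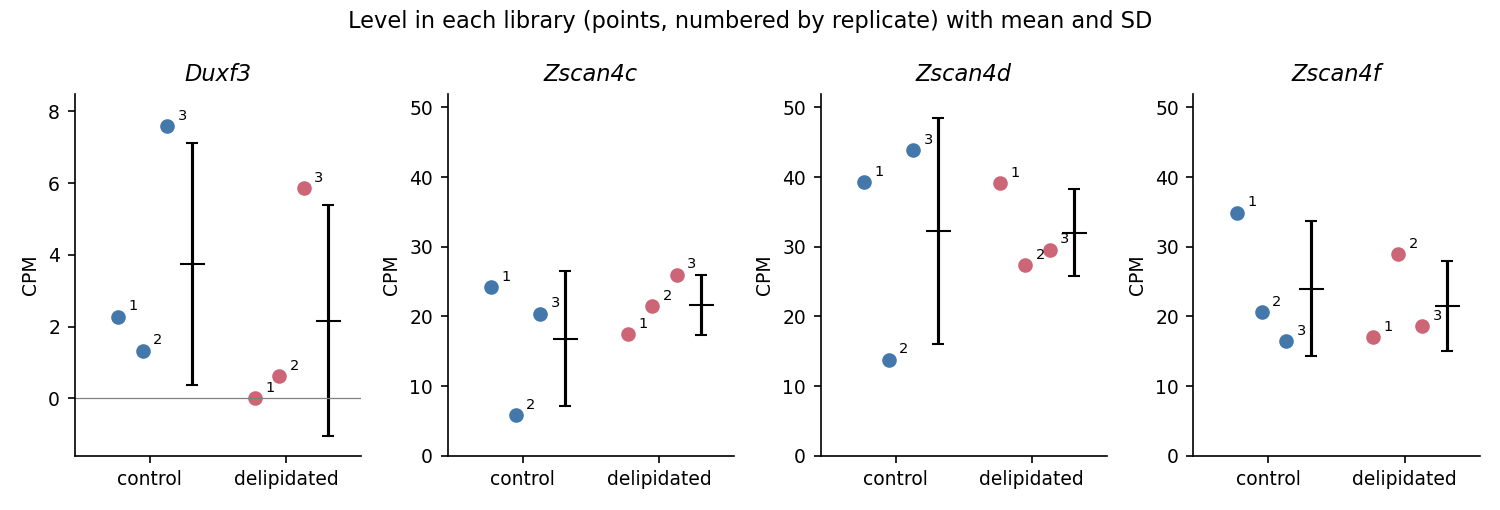
Level of Duxf3, Zscan4c, Zscan4d and Zscan4f in CPM (vertical axis) in each control (blue) and delipidated (red) library, numbered by replicate, with the mean and SD of each group in black. The groups overlap for all 4 genes, Duxf3 is highest in control 3 and delipidated 3, and control 2 is the lowest library for Zscan4c and Zscan4d at 5.81 and 13.8 CPM.

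All 4 genes passed the filter on low counts, and 0 of the 4 were called different, as were 0 of the 16020 genes tested (0% higher and 0% lower) with edgeR. An unadjusted p under 0.05 was reached by 0 of the 4 genes, against 463 or 2.89% of all genes tested, with 1.15% higher and 1.74% lower in delipidated embryos. DESeq2 without a filter called 9 genes higher and 40 lower, and edgeR without a filter called 5 and 25, and the adjusted p of each of the 4 genes was 0.847 or more in these and all other alternatives run. The groups were free of overlap for 0 of the 4 genes, against 8.86% of all genes tested, of which 3.81% lay above and 5.05% below the controls. With standard errors between 0.42 and 0.52, the intervals at 95% of the 3 Zscan4 copies reached from -1.08 to 1.50 on the log2 scale, and a change within these bounds cannot be told from none with 3 pools per group.

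The spread between pools was larger in control than in delipidated embryos for Zscan4c, Zscan4d and Zscan4f, and the difference in spread was not tested. The ratio of the highest to the lowest control library was 4.17 for Zscan4c, 3.19 for Zscan4d and 2.13 for Zscan4f. Among the delipidated libraries the ratios were 1.49, 1.43 and 1.70 for the same genes. Several of these ratios rested on single libraries. In a comparison added after seeing the data, the control ratio was 1.19 for Zscan4c and 1.12 for Zscan4d without control 2, and 1.25 for Zscan4f without control 1. The delipidated ratio of Zscan4f likewise was 1.10 without delipidated 2, and by construction 2 of the 3 libraries cannot give a larger ratio than all 3. The SD amounted to 57.8%, 50.2% and 40.5% of the mean in control embryos and to 19.9%, 19.4% and 30.0% in delipidated embryos. For Duxf3 the ratio was 5.71 in control embryos and could not be formed in delipidated embryos, where 1 library was at 0, and the SD was smaller against the mean in control (90.5%) than in delipidated embryos (149%). Zscan4b, with 26.2% and 60.2%, and Zscan4-ps3, with 34.2% and 40.4%, also had the smaller value in control embryos.

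To place this spread, the biological coefficient of variation (the replicate variation of a gene beyond counting noise, as edgeR estimates it) was compared with that of tested genes whose mean CPM lay within 1.5-fold. Duxf3 had a coefficient of 1.18, above that of 91.0% of 2340 genes of like level, whose median was 0.875. For Zscan4c and Zscan4d the coefficients were 0.461 and 0.392, above those of 72.8% of 2261 genes and 75.6% of 2082 genes. Zscan4f had 0.388, close to the median of 0.395 of 2168 genes.

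Per kb of exonic length, the level in control embryos fell in the order Zscan4d at 14.2 ± 7.15, Zscan4f at 12.2 ± 4.96, Zscan4c at 7.38 ± 4.27 and Duxf3 at 1.39 ± 1.25 CPM per kb (SD, n = 3). In delipidated embryos the order was the same, with 14.1 ± 2.74, 11.0 ± 3.29, 9.52 ± 1.89 and 0.800 ± 1.19 CPM per kb (SD, n = 3). Among the 3 Zscan4 copies, the libraries of neighbours in this order overlapped in both groups. Within single libraries the order changed: Zscan4f was highest in control 1, control 2 and delipidated 2, and Zscan4d in control 3, delipidated 1 and delipidated 3. Duxf3 was the lowest of the 4 genes per kb in every library. Since Zscan4f is divided into more and shorter parts than Zscan4c and Zscan4d, its reads could be counted more often, and its rank on this scale is uncertain for that reason.

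The annotation holds 6 other Zscan4 copies, and all 9 lie on chr7 between 10794242 and 11614112. Zscan4a, an unprocessed pseudogene in the annotation, was the most abundant per kb, at 15.7 ± 6.66 in control and 19.4 ± 2.46 CPM per kb in delipidated embryos (SD, n = 3). Its libraries overlapped those of Zscan4d, the next in order. Zscan4b stood at 15.9 ± 4.16 CPM in control and 11.7 ± 7.05 CPM in delipidated embryos, and Zscan4e at 16.6 ± 6.68 and 12.3 ± 4.41 CPM (SD, n = 3). Zscan4-ps1, Zscan4-ps2 and Zscan4-ps3 had group means between 1.32 and 4.52 CPM per kb. Of the 9 copies, 0 were called, 4 had a log2 fold change above 0 and 5 below, from -0.69 for Zscan4-ps1 to 0.37 for Zscan4c, with a median of -0.01 beside -0.00 for all genes tested.

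Summed over the 9 copies, the level was 202, 91.9 and 189 CPM in control 1, 2 and 3, and 156, 147 and 181 CPM in delipidated 1, 2 and 3. Control 2 therefore held the lowest total, below all delipidated libraries, while control 1 and control 3 held the highest. The mean of the sum was 161 ± 60.3 CPM (SD, n = 3) in control and 162 ± 17.8 CPM (SD, n = 3) in delipidated embryos. Of this sum, Zscan4a made up at most 30.7% in any library, Zscan4d at most 25.1%, Zscan4f at most 22.4% and Zscan4c at most 14.6%.

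**Figure D2:**
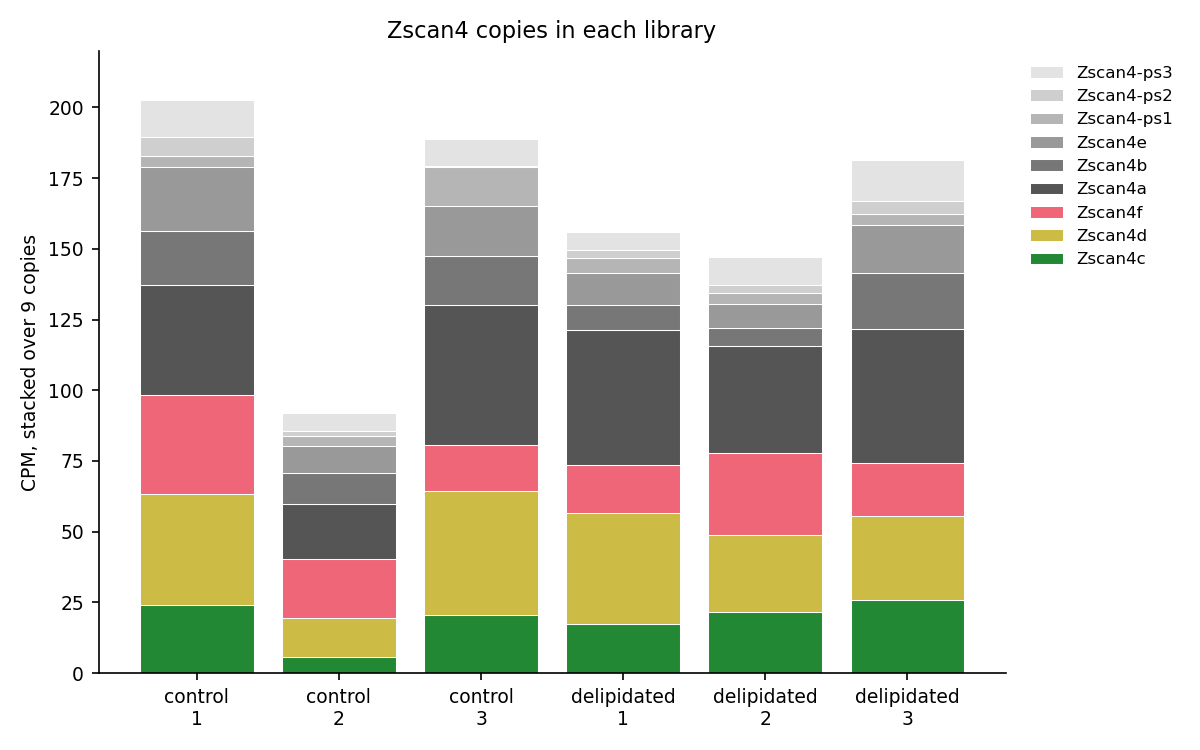
Level of the 9 Zscan4 copies in CPM (vertical axis), stacked in each of the 6 libraries, with Zscan4c, Zscan4d and Zscan4f in colour and the other copies in grey. The total is lowest in control 2 at 91.9 CPM, and the other 5 libraries lie between 147 and 202 CPM.

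The copies are so alike that unique mapping can drop or move reads among them, so the values of single copies are uncertain. Over the coding sequence of 1521 bases, Zscan4c and Zscan4f differed at 6 positions (99.6% identity), and Zscan4d differed from each of them at 35 positions (97.7% identity). The copy closest to Zscan4f was Zscan4-ps2, with 4 differing positions, and Zscan4b and Zscan4e also differed from each other at 4. The 3 named copies differed from one another at 38 coding positions in all, and their longest identical run was 233 bases, longer than a read of 150 bases. A stretch of 60 bases, from position 1032 to 1091 of the coding sequence, holds the most such positions and is printed from the GENCODE vM21 transcripts of GRCm38 to show what a read must cover to be placed. Capitals mark the 6 positions at which at least 1 of the 3 copies differs.
Zscan4c: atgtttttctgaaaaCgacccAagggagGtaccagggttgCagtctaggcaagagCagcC
Zscan4d: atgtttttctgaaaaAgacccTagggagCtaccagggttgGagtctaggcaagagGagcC
Zscan4f: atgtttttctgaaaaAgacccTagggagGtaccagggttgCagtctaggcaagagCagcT

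Each transcript was then divided into all its windows of the read length of 150 bases, and a window was called unique when no annotated transcript of another gene held it. Zscan4d had 1847 unique windows of 2123 (87.0%), Zscan4c 829 of 2127 (39.0%) and Zscan4f 423 of 1871 (22.6%). The copy that shared most windows with Zscan4c was Zscan4f, with 954, and for Zscan4f it was Zscan4-ps2, with 1160. Of the 3 copies, Zscan4d thus shares the least sequence with other annotated genes. The order by unique windows was not that of the group means per kb, where Zscan4f lay above Zscan4c in both groups. In control 3 and delipidated 3, Zscan4c lay above Zscan4f, and the part of shared sequence in these orders was not tested. Duxf3 had 2215 unique windows of 2596 (85.3%), and shared 248 with its neighbour AW822073. These shares count only annotated transcripts, and repeat units outside them, such as the rest of the Dux array, were not analysed here.

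The counts were also followed along the parts of each gene. Zscan4c held 0 counts on its first part of 107 bases and 1 on its next part of 472 bases in control 2, whereas the other 5 libraries held 26 to 92 and 50 to 107 counts there. On its part of 160 bases control 2 was not the low library. Control 1, 2 and 3 held 5, 9 and 6 counts there, and delipidated 1, 2 and 3 held 38, 21 and 29. The groups did not overlap on this part, but counts on parts are not scaled to library size. The share of all parts without overlap was not computed. On the last part of Zscan4c, of 1537 bases, control 2 held 86 counts and the others 130 to 216. Of the windows within the parts of 472 and 160 bases, 0 of 323 and 0 of 11 were unique. With the part of most counts, the last one, in place of the sum, the log2 fold change of Zscan4c was -0.04.

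Zscan4d had counts on each of its 4 parts in all 6 libraries, and control 2 was the lowest library on its part of 472 bases, with 64 counts, on that of 160 bases, with 44, and on that of 1533 bases, with 101. All 323 windows of its part of 472 bases were unique among annotated transcripts. The part of read placement in the low values of Zscan4d in control 2 was not tested. In delipidated 1, the part of 160 bases held 248 counts, against 44 to 126 in the other libraries. Zscan4f had counts on all 7 parts in all 6 libraries, although 0 of the 179 windows of its part of 328 bases and 104 of the 966 windows of its last part were unique. Counts on parts without a unique window can come from reads that reach into a neighbouring exon or from their mates.

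Duxf3 has 2 annotated transcripts, the first 4 of its parts hold coding sequence, and its counts were gathered in the first 3. These parts of 662, 401 and 549 bases held 99, 68 and 73 counts over all 6 libraries. The part of 413 bases held 2 counts, both in control 2, and the last part of 672 bases, behind the coding sequence, held 0, although all 523 windows of the latter were unique. In delipidated 2 the 10 counts all lay on 1 part, that of 549 bases, so few reads stand behind that value.

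**Figure D3:**
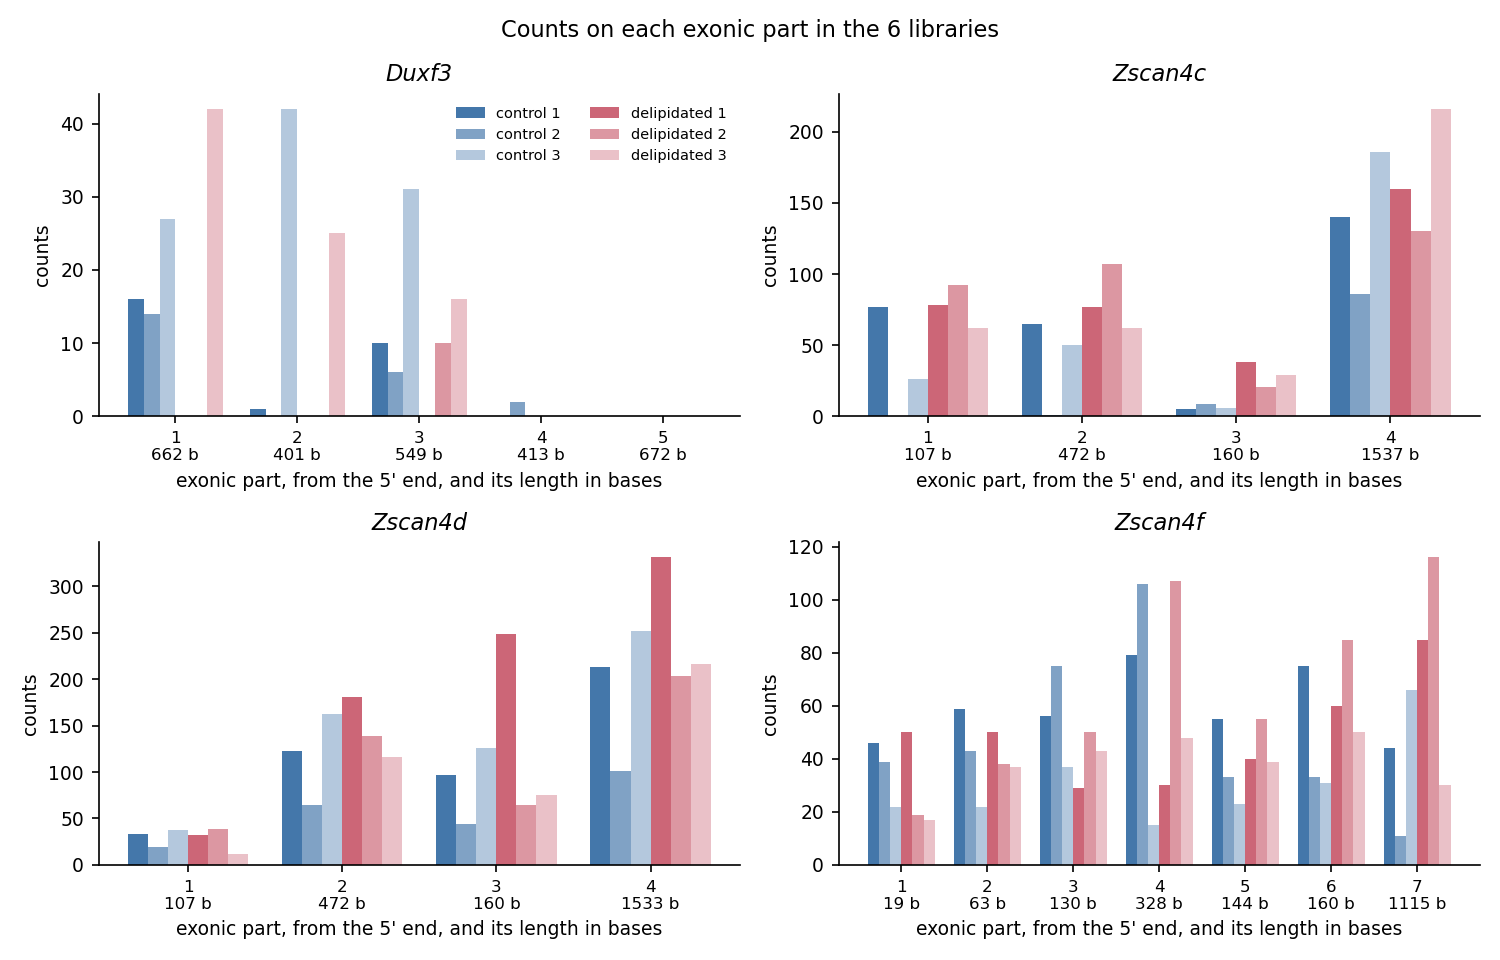
Counts (vertical axis) on each exonic part, ordered from the 5′ end with the length in bases, in the 3 control (blue shades) and 3 delipidated (red shades) libraries. Zscan4c has 0 and 1 counts on its first parts in control 2, and Duxf3 has 2 and 0 counts in all on its last parts.

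Of the other members of the Dux family, AW822073, which lies beside Duxf3 at chr10:58222972-58224930, stood at 4.47, 0.181 and 9.43 CPM in control 1, 2 and 3 and at 0.938, 0.614 and 3.46 CPM in delipidated 1, 2 and 3. As for Duxf3, the libraries numbered 3 were high in both groups, and the groups overlapped. Its log2 fold change was -1.49 (SE 1.21), with an adjusted p of 1.00 in edgeR's quasi-likelihood test. Gm4981, on the other side of Duxf3, was covered by 21, 0 and 8 counts in control 1, 2 and 3 and by 0, 14 and 3 in delipidated 1, 2 and 3, and did not pass the filter on low counts.

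Duxbl1, a Dux-like gene on chr14, stood at 3.46, 1.21 and 5.24 CPM in the control and 19.4, 4.12 and 8.75 CPM in the delipidated libraries. The groups overlapped through delipidated 2, which lay below control 3. Duxbl1 had a log2 fold change of 1.70 (SE 0.75), with an unadjusted p of 0.0470 and an adjusted p of 1.00 in edgeR's quasi-likelihood test. In delipidated 1, Duxbl1 held 56 counts on each of its adjoining parts of 9, 44 and 149 bases, where reads may have been counted more than once. Only 936 of its 4814 windows (19.4%) were unique, and of its near-identical copies Duxbl2 held 0 counts in all libraries, with 0 unique windows, and Duxbl3 held 1. Of the 10 symbols of the Dux family list, Duxf1, Duxf2, Duxf4 and Dux matched no gene of the annotation by symbol, 3 genes were tested and 0 were called, with a median log2 fold change of -0.80.

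Of the genes known to switch Dux on or off, all 15 were tested, 0 were called, and the median log2 fold change was -0.05. Of the 4 activators 3 were above 0, with a median of 0.10 and values from -0.13 to 0.20. Of the 11 repressors 8 were below 0, with a median of -0.17. Among all 16020 genes tested, 8004 were above 0 and 8016 below. Rif1, a repressor that acts in replication timing and heterochromatin, stood between 1477 and 1655 CPM in all 6 libraries. Ncl, encoding nucleolin, ranged from 1013 to 1601 CPM, Trim28, a corepressor of zinc finger proteins, from 294 to 475 CPM, and the histone deacetylase gene Hdac1 from 250 to 347 CPM. For the histone methyltransferase gene Setdb1 the log2 fold change was -0.35 (SE 0.25), with an adjusted p of 1.00 in edgeR's quasi-likelihood test.

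Chaf1b, a subunit of the chromatin assembly factor CAF-1 whose loss is known to raise Dux in embryonic stem cells, was the 1 gene of the list with an unadjusted p under 0.05. It stood at 40.3, 25.8 and 37.8 CPM in control 1, 2 and 3 and at 11.8, 10.5 and 14.3 CPM in delipidated 1, 2 and 3. All 3 delipidated libraries lay below all control libraries, as for 5.05% of all genes tested. The means were 34.6 ± 7.74 and 12.2 ± 1.91 CPM (SD, n = 3), with an exact permutation p of 0.1, the smallest possible here. The log2 fold change was -1.51 (SE 0.37), with an unadjusted p of 0.00199 and an adjusted p of 1.00 in edgeR's quasi-likelihood test, so it did not pass.

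Of the 25 other genes of the 2-cell stage known to be activated by Dux, 24 were tested and 0 were called. Their log2 fold change was above 0 for 17 and below 0 for 7, with a median of 0.20 beside -0.00 for all genes tested. Control 2 was the lowest library for 15 of the 24 (62.5%), and for 15.6% of all genes tested. Delipidated 3 was the highest library for 12 of the 24 (50.0%), and for 19.8% of all genes tested. Their summed level was 1287, 677 and 1077 CPM in control 1, 2 and 3 and 924, 1165 and 1485 CPM in delipidated 1, 2 and 3. The low control 2 was thus shared with Zscan4c, Zscan4d and the sum of the Zscan4 copies.

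Sp110, a nuclear body protein gene, stood at 365, 189 and 239 CPM in the control and 259, 312 and 436 CPM in the delipidated libraries. Zfp352 had 120, 54.5 and 88.1 CPM against 42.2, 86.2 and 144 CPM, and Usp17lc, a deubiquitinase gene, 126, 33.1 and 101 CPM against 75.3, 66.2 and 127 CPM. The groups overlapped for these 3 genes. Usp17lb, another deubiquitinase gene, stood at 106, 66.3 and 113 CPM in the control and 119, 176 and 148 CPM in the delipidated libraries, and was the 1 gene of the list whose groups did not overlap, above the controls as for 3.81% of all genes tested. Usp17lb had a log2 fold change of 0.64 (SE 0.27), with an unadjusted p of 0.0364 and an adjusted p of 1.00 in edgeR's quasi-likelihood test. Pramef25 had the next smallest p, with 23.6, 6.11 and 15.1 CPM in the control and 20.5, 24.7 and 36.3 CPM in the delipidated libraries.

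Of 12 other zinc finger genes with a SCAN domain 10 were tested, 0 were called, and the median log2 fold change was -0.05 beside -0.00 for all genes tested. Control 2 was the lowest library for 0 of the 10 and the highest for 4, beside 15.6% and 17.1% of all genes tested. Zscan5b stood at 166, 246 and 178 CPM in the control and 197, 203 and 159 CPM in the delipidated libraries. Zscan21 ranged from 43.8 to 68.2 CPM, Zscan29 from 30.9 to 67.8 CPM and Zscan25 from 3.97 to 15.7 CPM. For Zscan10 all 3 delipidated libraries, at 8.74, 4.48 and 6.21 CPM, lay above the control libraries at 0.759, 4.11 and 1.14 CPM, as for 3.81% of all genes tested. Its log2 fold change was 1.68 (SE 0.84), with an unadjusted p of 0.0736 and an adjusted p of 1.00 in edgeR's quasi-likelihood test.

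The genes whose profile over the 6 libraries was closest to each of the 4 were found by the root mean square difference of log2(CPM + 1), each gene centred on its own mean. For Duxf3 these were Tbc1d19 (0.193), Rtkn (0.218) and Gm35060 (0.267), all of them high in control 3 and delipidated 3. For Zscan4c they were AA545190 (0.150), Gm21761 (0.170) and Fbxl7 (0.183), each lowest in control 2. For Zscan4d they were Gm527 (0.105), Nr2c1 (0.146) and 4933439C10Rik (0.146), again lowest in control 2, and for Zscan4f Gm13384 (0.103), Strip2 (0.106) and Tfcp2l1 (0.110), all highest in control 1. Among the 4 genes themselves, Zscan4c and Zscan4d were closest at 0.384, Zscan4f differed from them by 0.703 and 0.673, and Duxf3 differed from the 3 Zscan4 copies by 1.10 to 1.24. This measure also grows with the spread of a gene, which was largest for Duxf3 (coefficient 1.18), so it does not by itself compare shapes. The highest library was control 3 for Duxf3 and Zscan4d, delipidated 3 for Zscan4c and control 1 for Zscan4f.

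The promoters were compared because Dux is known to bind upstream of Zscan4 genes. Promoter sequences from RefSeq (GRCm38.p6), from 250 bases before to 50 bases after the gene start, were found for Zscan4b, Zscan4c, Zscan4d, Zscan4f, Duxf3 and Gm4981. Both strands were searched for the Dux motif TGATTNNATCA, which 68 of 32851 promoters hold (0.207%), and for the Zscan4 motif core TGCACAC, which 1444 hold (4.40%). The Dux motif was found 1 time in each of the 4 Zscan4 promoters, on the strand opposite to the gene, and in neither of the other promoters. The Zscan4 motif core was in none of the 6 windows. The match began 114 bases before the gene start in Zscan4c, 125 in Zscan4d and 91 in Zscan4f, and these distances follow the annotated starts. A match is a description of the letters, and binding was not measured here. The promoters of the 3 named copies are printed to show the shared element, with the 11 letters of the match in capitals, for Zscan4c at chr7:11005495-11005794 on the forward strand, for Zscan4d at chr7:11166099-11166398 on the reverse strand and for Zscan4f at chr7:11397665-11397964 on the forward strand.
Zscan4c: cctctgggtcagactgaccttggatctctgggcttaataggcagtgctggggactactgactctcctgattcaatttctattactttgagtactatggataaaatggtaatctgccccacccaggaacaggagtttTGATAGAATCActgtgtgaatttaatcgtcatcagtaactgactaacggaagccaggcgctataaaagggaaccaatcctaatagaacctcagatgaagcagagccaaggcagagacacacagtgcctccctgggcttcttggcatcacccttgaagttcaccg
Zscan4d: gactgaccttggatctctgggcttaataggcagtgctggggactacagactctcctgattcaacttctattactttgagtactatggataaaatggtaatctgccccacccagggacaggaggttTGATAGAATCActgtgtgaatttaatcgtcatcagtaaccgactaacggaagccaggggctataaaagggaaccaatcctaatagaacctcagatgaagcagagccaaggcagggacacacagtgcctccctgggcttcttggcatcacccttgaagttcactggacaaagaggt
Zscan4f: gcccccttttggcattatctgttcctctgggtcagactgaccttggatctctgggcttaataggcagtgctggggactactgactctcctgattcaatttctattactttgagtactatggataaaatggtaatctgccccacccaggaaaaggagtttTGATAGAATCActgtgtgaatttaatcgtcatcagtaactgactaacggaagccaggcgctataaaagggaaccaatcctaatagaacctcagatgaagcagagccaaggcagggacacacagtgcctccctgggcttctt

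The pools were checked against markers of the cells they could hold. All 8 markers of oocyte and early embryo were present, with Npm2 at 164 to 334 CPM, Bmp15 at 123 to 389 CPM, Nlrp5 at 151 to 255 CPM and Padi6 at 69.6 to 132 CPM. Their summed level was lowest in control 2, at 666 CPM, beside 929 and 938 CPM in control 1 and 3 and 825, 947 and 1228 CPM in delipidated 1, 2 and 3. Control 2 was the lowest library for 5 of the 8 markers (62.5%), beside 15.6% of all genes tested, and Padi6 was among the 3 for which it was not. The part of these markers in the low Zscan4 values was not tested.

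The 10 markers of cumulus and granulosa cells summed to between 1.38 and 11.2 CPM, and 2 of them were at 0 in all libraries. Tnfaip6 reached 6.76 CPM, and Has2, Cyp19a1 and Inhba were each at 5.44 CPM or less. The 5 leukocyte markers summed to at most 6.67 CPM, with Cd74 at up to 4.96 CPM and Cd52, Ptprc and Lyz2 at 2.42 CPM or less. Lyz2 stood at 0.169, 0.484 and 0.608 CPM in control 1, 2 and 3 and at 0 in all delipidated libraries. It did not pass the filter on low counts, and the groups overlapped for Cd74, Cd52 and Ptprc. The 5 markers of later stages summed to 4.72, 5.26 and 5.02 CPM in the control libraries. In the delipidated libraries the sums were 8.79, 10.7 and 7.20 CPM, without overlap, and no share over all genes exists for such a sum. Sox2, at up to 6.82 CPM, and Gata3 made up most of each sum, and the groups overlapped for Sox2. Cdx2, Nanog and Sox17 were below 1 CPM, and the means of Cdx2 and Nanog were lower in delipidated embryos. Gata3 stood at 2.11, 1.69 and 0.760 CPM in the control and 2.96, 3.50 and 4.09 CPM in the delipidated libraries, also without overlap, as for 3.81% of all genes tested. Its log2 fold change was 1.21 (SE 0.94), with an unadjusted p of 0.228 in edgeR's quasi-likelihood test. The part of these markers in the results was not tested. Of the oviduct markers, Epcam, which early embryos also express, ranged from 82.5 to 221 CPM, while Krt18, Krt8 and Ovgp1 stood at 20.2 CPM or less, and the 4 summed to 90.4, 248 and 123 CPM in the control and 173, 204 and 112 CPM in the delipidated libraries. Of the genes of these 4 lists that were tested, 0 were called.

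The summed markers of stromal cells were higher in the control libraries, where Vim made up most of the sum, but not every marker followed this. The sum of these 6 genes was 15.8, 13.7 and 27.3 CPM in control 1, 2 and 3 and 0, 0 and 3.81 CPM in delipidated 1, 2 and 3. Vim, which blastomeres may also transcribe, stood at 12.8, 8.77 and 22.8 CPM in the control libraries and 0 in all delipidated libraries. With 3 counts allowed in each library at 0, it was at least 81.6-fold lower, a bound that covers counting error only. The adjusted p of Vim, 0.0721 in edgeR's quasi-likelihood test, did not pass. Col1a1 stood at 0.928, 1.57 and 3.19 CPM in the control libraries and at 0 in all delipidated libraries. Vim and Col1a1 thus lay below all controls in delipidated embryos, as did 5.05% of all genes tested. The groups overlapped for Col1a2, at 1.18, 2.90 and 1.14 CPM in the control and 0, 0 and 1.91 CPM in the delipidated libraries. Dcn went the other way, at 0 in all control libraries and 1.91 CPM in delipidated 3. Of the 6 markers 3 were tested and 0 called, with a median log2 fold change of -3.39 when the 2 genes at 0 are set at their bound. The groups overlapped for all 4 genes of genome activation, and the part of these markers in their values was not tested. Every delipidated library also had fewer genes with counts than every control library, and the part of this in the low stromal values was not tested.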

How the data were processed

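The authors deposited raw counts of unique reads per exonic part, 425461 parts per library, without normalization. Per the submitters' processing notes, reads were trimmed with Trimmomatic 0.36, aligned with STAR 2.5.2b to mm10 and counted with featureCounts. Libraries were made with a stranded total RNA kit without molecular identifiers and read as pairs of 150 bases. Parts were summed per gene identifier here, and parts under joined identifiers were assigned where the exons of 1 member gene in GENCODE vM21 overlapped them. Of the 33309 joined parts 5341 were left out, with 2.49% to 2.57% of a library's counts. Of 49644 gene identifiers, 49384 matched the annotation.

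All 6 libraries were fitted with edgeR 4.0.16 in R 4.3.3 (quasi-likelihood test, TMM, no covariate), after filterByExpr set to 10 counts and a total of 15. A gene was called when its p after Benjamini-Hochberg adjustment was under 0.05 and its log2 fold change was beyond 1. Alternatives were DESeq2 1.42.0, its size factors, other filters and library sizes, a replicate block, leaving out each library, limma-voom (limma 3.58.1), no fold threshold, joined parts left out, the part with most counts, CPM on total counts and the summed Zscan4 copies. Ratios between libraries with 1 left out were added after seeing the data. The edgeR fit was tested on simulated counts. Sequences were aligned with Biopython 1.88.

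The 4 genes and all lists were chosen with earlier results of these data known. Named genes are the 4, all measured Zscan4 and Dux family copies, from each other list the 4 genes of highest mean CPM and the 2 of smallest p, and the 3 tested genes most alike to each of the 4.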

Additional observations from a re-analysis of the deposited data

How the results depend on the processing

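The log2 fold changes of Zscan4c and Zscan4f kept their direction in 13 of 15 and 14 of 15 alternatives, that of Duxf3 in 13 of 14 and that of Zscan4d, close to 0, in 9 of 15. The adjusted p was never below 0.847, so no alternative called any of them. Zscan4c turned to -0.04 with the part of most counts, and Zscan4d to 0.22 with limma-voom; the cause was not tested. Leaving out 1 library at a time gave -3.59 to 0.26 for Duxf3, -0.04 to 0.75 for Zscan4c, -0.38 to 0.27 for Zscan4d and -0.43 to 0.22 for Zscan4f. The turns came without control 3 for Duxf3, without control 2 for Zscan4c, without control 1 for Zscan4f, and for Zscan4d at 0.17 without control 1, 0.27 without control 3, 0.09 without delipidated 2 and 0.04 without delipidated 3. Limma-voom gave -2.95 for Duxf3, and a mean count of at least 50 left it out, so that setting has no value for it.

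The counts of called genes, 0 higher and 0 lower, moved to 9 and 40 with DESeq2 without a filter and to 5 and 25 with edgeR without a filter, where 30967 genes were tested. They were 0 and 0 in all other settings, each library left out included. The replicate number does not pair the pools: deviations of libraries with the same number correlated at -0.156, 0.149 and 0.0997 over 10100 genes. As a replicate block it gave 0 and 0 calls, -2.05 for Duxf3, 0.57 for Zscan4c, 0.13 for Zscan4d, which reversed its sign, and -0.12 for Zscan4f. Scaling by total counts moved the difference of mean log2(CPM + 1) by less than the SD between replicates for all 4 genes. The 9 copies summed gave 0.08 for this difference, beside 0.54 for Zscan4c, 0.13 for Zscan4d and -0.12 for Zscan4f, whose sign it does not share. With 1 library left out, which was chosen after seeing the data, the ratio of the highest to the lowest library lay between 1.19 and 4.17 for Zscan4c, 1.12 and 3.19 for Zscan4d, 1.25 and 2.13 for Zscan4f and 1.71 and 5.71 for Duxf3 in control embryos. In delipidated embryos it lay between 1.21 and 1.49, 1.08 and 1.43, and 1.10 and 1.70 for the 3 Zscan4 copies.

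Duxf3 had few counts, with 0 to 100 per library. Reads counted in several parts make the counts appear more precise than they are. Without molecular identifiers, reads are not independent molecules.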
